A study of Homo sapiens with 6 samples.

Results

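The genes described here are 9 histone genes that encode replication-independent histone variants, of 57820 genes in the expression table. They were taken by symbol from a list: H2AFZ and H2AFV (the H2A.Z isoforms), H2AFX (H2A.X), H2AFY (macroH2A), H2AFJ (H2A.J), H3F3A and H3F3B (H3.3), H1FX (a linker histone) and CENPA (the centromeric H3). All 9 were in the table, and 8 passed the filter of 1 CPM (counts scaled to library size) in at least 1 library and entered the comparison. The filter used CPM before TMM normalization, and the CPM values given below are TMM-normalized. The expression values used the older symbols, which are kept here.

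Most histone protein is made during S phase from clustered, intronless genes whose mRNAs end in a stem-loop rather than a poly(A) tail. Histone variants are mostly encoded by genes outside these clusters, mostly with polyadenylated mRNAs, and many of them are made throughout the cell cycle. Dedicated chaperones and remodelers place them in chromatin at promoters, centromeres or sites of DNA damage.

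The samples were total RNA from SEM cells, a human line of B-cell acute lymphoblastic leukemia, in 3 CTCF-WT and 3 CTCF-dRBR libraries. In both groups the endogenous CTCF was fused to miniAID and mClover3 on both alleles, and OsTIR1(F74G) was expressed, so that the auxin analog 5-Ph-IAA triggers degradation of the tagged protein. Both groups received 5-Ph-IAA for 24 h, at 1 or 10 µM in the methods without a statement of which was used for RNA. Doxycycline at 1 µg/mL was added after the first 6 h and kept for 18 h to induce HA-tagged CTCF, wild-type in one group and lacking the RNA-binding region (dRBR) in the other. For the CTCF-WT libraries, the genotype label gives the miniAID-tagged allele but no HA-CTCF transgene, and the title alone places them in the group. Both lines are engineered derivatives of 1 cell line, both groups carry the degron and both drugs, and nothing in the labels says that the replicates came from separate cultures. The p-values therefore measure only the spread between these libraries, which may be technical.

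Total expected counts were 51732177 to 53166735 per CTCF-WT library and 30034505 to 50457168 per CTCF-dRBR library, with CTCF-dRBR replicate 1 the shallowest. That library also stood apart from the rest on the first principal component of log2 CPM (73.5% of the variance), at 101.85 against −52.8 to 19.5 for the other 5. Within a library, the deviation of a gene from its 6-library mean moved with the GC content of its transcript. Spearman's rho across genes was 0.70, 0.67 and 0.33 in CTCF-WT replicates 1 to 3 and −0.78, −0.41 and 0.50 in CTCF-dRBR replicates 1 to 3. These are descriptions across genes, which are not independent replicates. B-lineage markers were present in every library, with a summed TPM (counts scaled to gene length and library size) of 227 to 399 for 7 genes. T-lineage markers summed to at most 0.54 TPM with CD3D at 0 counts, and erythroid markers to at most 0.08. Myeloid markers summed to at most 3.04, most of it from CSF1R, at 1.16 to 2.96 TPM and 53 to 351 counts per library. ELANE had 0 counts. Stromal or epithelial markers summed to at most 0.60. CTCF itself, endogenous and induced together, was 210, 211 and 249 CPM in CTCF-WT and 273, 264 and 252 CPM in CTCF-dRBR.

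The comparison asks whether loss of the RNA-binding region of CTCF changes histone variant transcripts. No member passed an adjusted p of 0.05 in limma-voom, where 0 of 14044 genes (0%) did, although 3569 had an unadjusted p under 0.05. Of the other tests on the counts, edgeR's quasi-likelihood test called 0 genes (0%) and DESeq2 called 11.5% of genes and 0 members, while voomWithQualityWeights called 68.2% of genes and 7 members. An unadjusted p under 0.05 was reached by 2 of the 8 members, H2AFX and H2AFY, both lower in CTCF-dRBR, against 25.4% of all genes and 12.8% in that direction. In 3 of 8, H2AFV, H2AFX and H2AFY, the CTCF-dRBR values all lay under the CTCF-WT values, against 17.5% of all genes. The log2 fold change was below 0 in 7 of 8 members, against 50.6% of all genes, and its median was −0.32 against −0.0076. The median of the members was −0.17 without CTCF-dRBR replicate 1 and −0.37 after the GC trend of each library was removed, where 5 of 8 were below 0. Only H2AFX and H1FX, 2 of 8, were below 0 on log2(TPM + 1), a scale on which the all-gene median was 0.40. In bulk RNA, fewer cells of a state and less RNA per cell cannot be told apart.

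**Figure D1:**
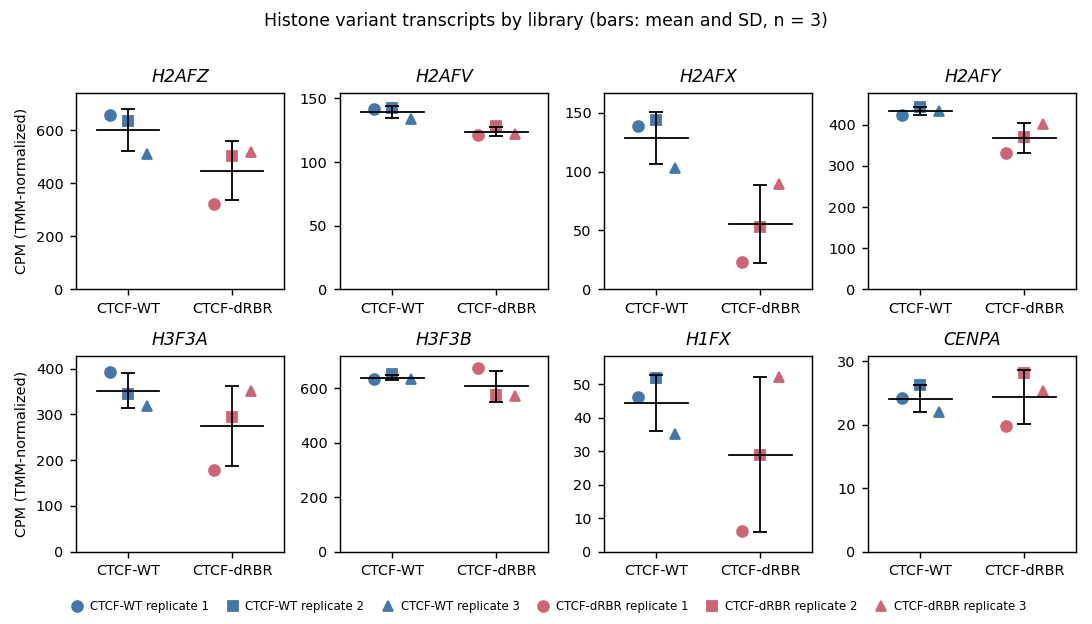
TMM-normalized CPM (vertical axis, from 0) of the 8 tested variant genes in each of the 6 libraries, with 3 points per group and bars for the mean and SD. The groups are apart for H2AFV, H2AFX and H2AFY and overlap for the other 5 genes, and CTCF-dRBR replicate 1 is the lowest library for 7 of the 8 genes and the highest for H3F3B.

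The order of levels was set by mean TPM over the 6 libraries. H3F3B (421 TPM) and H2AFZ (411 TPM) led, and H3F3B was above H2AFZ in only 2 of 6 libraries, so these neighbours were not separated. H3F3A (224 TPM), H2AFY (156), H2AFV (79.2) and H2AFX (44.5) followed, each above the next in all 6 libraries. H1FX (17.7 TPM) was above CENPA (15.5 TPM) in 4 of 6 libraries. H2AFJ had a mean TPM of 0.028 and is described at the end of the members.

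H2AFX encodes H2A.X, the H2A variant that is phosphorylated around DNA double-strand breaks. It lies at chr11:118964584-118966175 (GRCh37) on the minus strand, with no overlapping gene in the annotation. Its CPM was 139, 144 and 103 in CTCF-WT replicates 1 to 3 and 23.2, 53.2 and 89.5 in CTCF-dRBR replicates 1 to 3. All CTCF-dRBR libraries were below all CTCF-WT libraries, and CTCF-dRBR replicate 1 was the lowest. The means were 129 ± 22.2 and 55.3 ± 33.2 CPM (SD, n = 3 each). On the log2 scale the fold change was −1.33 (SE 0.44, 95% interval −2.39 to −0.28), the most negative of the members, with an unadjusted p of 0.0208 and an adjusted p of 0.158 in limma-voom.

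The transcript of H2AFX is 66.8% GC. With the GC trend of each library removed, its CPM was 84.8, 91.0 and 97.1 in CTCF-WT and 73.2, 62.4 and 66.7 in CTCF-dRBR, and the groups still did not overlap. The log2 fold change was then −0.44, in place of −1.33, with an adjusted p of 0.0353 in limma-voom, and H2AFX was the 1 member called, where 8.81% of all genes were. This call was not stable to single libraries. Leaving out CTCF-dRBR replicate 1 gave −0.49 (adjusted p = 0.0107), where 23.2% of genes were called, while leaving out any one of the other 5 gave −0.49 to −0.39 with adjusted p-values of 0.0713 to 0.162. Without the GC step, the log2 fold change was −0.89 (adjusted p = 0.0785) when CTCF-dRBR replicate 1 was left out.

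The promoter of H2AFX is shown because it belongs to the member with the most negative fold change, beside those of H1FX, which shares its high GC content, and H3F3B, which differed little between the groups. Each run holds 250 bases before and 50 after the transcription start (RefSeq, GRCh38.p14), on the strand of the gene. Capitals mark, on either strand, the CCAAT box, the TATA box searched as TATAAA, the GC box searched as GGGCGG, and the cell-cycle element searched as TTTGAA. A motif on the opposite strand appears as its reverse complement. No motif overlaps another in these windows.
H2AFX (chr11:119095416-119095715, minus strand): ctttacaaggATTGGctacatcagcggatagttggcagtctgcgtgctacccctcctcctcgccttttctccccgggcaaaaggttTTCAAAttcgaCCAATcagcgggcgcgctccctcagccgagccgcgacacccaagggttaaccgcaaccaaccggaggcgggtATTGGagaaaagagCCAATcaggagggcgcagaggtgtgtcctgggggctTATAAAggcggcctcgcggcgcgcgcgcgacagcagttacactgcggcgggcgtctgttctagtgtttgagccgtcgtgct
H1FX (chr3:129316237-129316536, minus strand): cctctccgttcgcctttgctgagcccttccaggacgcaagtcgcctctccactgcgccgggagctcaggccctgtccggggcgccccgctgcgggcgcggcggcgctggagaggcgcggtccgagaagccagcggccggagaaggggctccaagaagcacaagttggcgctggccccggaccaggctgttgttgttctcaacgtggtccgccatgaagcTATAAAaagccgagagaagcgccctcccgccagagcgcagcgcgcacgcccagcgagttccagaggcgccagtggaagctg
H3F3B (chr17:75779730-75780029, minus strand): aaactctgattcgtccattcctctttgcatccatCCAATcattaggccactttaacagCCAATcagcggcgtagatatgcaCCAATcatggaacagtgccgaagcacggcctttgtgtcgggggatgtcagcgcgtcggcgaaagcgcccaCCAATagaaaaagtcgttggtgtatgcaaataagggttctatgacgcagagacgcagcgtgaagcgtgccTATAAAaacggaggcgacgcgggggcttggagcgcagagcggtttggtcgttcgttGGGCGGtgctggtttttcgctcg
The H2AFX and H3F3B windows each held 4 CCAAT and 1 TATAAA, starting at −31 in H2AFX and −29 in H3F3B relative to the transcription start, while the H1FX window held TATAAA at −31 and no CCAAT. All 9 members had a window, and CCAAT was found in 8 of them, against 34.6% of all 35116 promoter windows of this length. TATAAA was found in 4 (11.5% of all windows), GGGCGG in 6 (45.0%) and TTTGAA in 3 (15.2%). Members with several starts had several windows, 13 in all, and a match in any of them was counted. TTTGAA was found once in the H2AFX window and not in that of H3F3B, and GGGCGG once in the H3F3B window and not in that of H2AFX.

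H2AFY encodes macroH2A, an H2A with a large globular domain found on silent chromatin. It lies at chr5:134670071-134735604 (GRCh37) on the minus strand and overlaps PITX1-AS1 on the other strand, from which its reads cannot be told apart if the strand was not used in counting. The same holds for H2AFZ, H3F3A, H3F3B and H1FX, which also overlap genes on the other strand. The deposited counts are named as stranded, without a statement of how the strand was used. The CPM of H2AFY was 425, 444 and 434 in CTCF-WT and 331, 371 and 403 in CTCF-dRBR. The CTCF-WT libraries lay close together, and all CTCF-dRBR libraries were below them. The log2 fold change was −0.24 (SE 0.10, 95% interval −0.48 to −0.00028), with an unadjusted p of 0.0498 and an adjusted p of 0.196 in limma-voom. For the GC trend its GC content was taken as 44%, that of its longest annotated transcript, of 10982 bases. Whether this transcript is the one expressed was not tested. With the GC trend removed, the H2AFY difference was larger, at −0.40 (adjusted p = 0.0977 in limma-voom). It was −0.25 (adjusted p = 0.0476 in limma-voom) when CTCF-dRBR replicate 1 was left out as well, where 23.2% of genes were called. This was the 1 call of H2AFY among 6 such fits, each leaving out 1 library. The others gave adjusted p-values of 0.0705 to 0.283.

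H2AFZ and H2AFV encode the H2A.Z isoforms, which replace H2A at promoters and enhancers. H2AFZ lies at chr4:100869243-100871512 (GRCh37, minus strand, overlapping H2AZ1-DT on the other strand) and H2AFV at chr7:44866390-44887686 (GRCh37, minus strand). The CPM of H2AFZ was 655, 636 and 510 in CTCF-WT and 320, 503 and 518 in CTCF-dRBR. The groups overlapped, since CTCF-dRBR replicate 3 was above CTCF-WT replicate 3, and CTCF-dRBR replicate 1 was far below the rest. This gave a log2 fold change of −0.45 (SE 0.21, 95% interval −0.96 to 0.065, adjusted p = 0.223 in limma-voom) and −0.23 without CTCF-dRBR replicate 1.

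The CPM of H2AFV was 142, 143 and 134 in CTCF-WT and 121, 128 and 122 in CTCF-dRBR. The groups did not overlap, and both were narrow. Its log2 fold change was −0.17 (SE 0.083, 95% interval −0.37 to 0.031, adjusted p = 0.230 in limma-voom), so the intervals of both isoforms included 0. With the GC trend removed it was −0.35 (adjusted p = 0.0828 in limma-voom). The log2 ratio of H2AFZ to H2AFV in TPM, which does not depend on the scaling of a library, was 2.63, 2.58 and 2.35 in CTCF-WT and 1.80, 2.46 and 2.55 in CTCF-dRBR. The groups overlapped, and the difference of −0.25 had an exact two-sided permutation p of 0.5, where the smallest p that 3 against 3 libraries allow is 0.1. Without CTCF-dRBR replicate 1 the difference was −0.017.

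The coding sequences of the isoforms differ at 76 of 387 bases (80.4% identity), in 67 codons, 64 of them synonymous. The last 75 bases are shown because they separate the reads of nearly identical proteins, with the bases that differ in capitals.
H2AFZ: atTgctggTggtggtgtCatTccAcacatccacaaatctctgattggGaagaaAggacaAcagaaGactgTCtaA
H2AFV: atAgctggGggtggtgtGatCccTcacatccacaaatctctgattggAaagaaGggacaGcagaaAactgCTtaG
These stretches differ at 12 bases.

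H3F3A and H3F3B encode the same protein, H3.3, which is placed at active genes by HIRA and at telomeres and pericentric repeats by ATRX and DAXX. H3F3A lies at chr1:226249552-226259720 (GRCh37, plus strand, overlapping H3-3A-DT on the other strand), and H3F3B at chr17:73772515-73781974 (GRCh37, minus strand, overlapping UNK on the other strand and MIR4738). The coding sequences differ at 88 of 411 bases (78.6% identity) in 79 codons, all of them synonymous, so the reads of each gene can be separated although the protein is the same. Bases 313 to 402 are shown, with differences in capitals.
H3F3A: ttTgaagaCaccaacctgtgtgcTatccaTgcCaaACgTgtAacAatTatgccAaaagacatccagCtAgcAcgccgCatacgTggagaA
H3F3B: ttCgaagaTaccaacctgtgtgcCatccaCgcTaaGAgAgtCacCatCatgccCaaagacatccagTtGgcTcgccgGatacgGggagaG
These stretches differ at 18 of 90 bases.

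The CPM of H3F3B was 634, 650 and 633 in CTCF-WT and 673, 576 and 572 in CTCF-dRBR. CTCF-dRBR replicate 1 was above all CTCF-WT libraries and the other CTCF-dRBR libraries were below them. The log2 fold change was −0.079 (SE 0.097, 95% interval −0.31 to 0.15, adjusted p = 0.572 in limma-voom), and it was 0.045 with the GC trend removed. The CPM of H3F3A was 393, 345 and 317 in CTCF-WT and 179, 294 and 351 in CTCF-dRBR. The groups overlapped, with CTCF-dRBR replicate 3 above CTCF-WT replicates 2 and 3. For H3F3A this was a log2 fold change of −0.40 (SE 0.25, 95% interval −1.0 to 0.20, adjusted p = 0.302 in limma-voom), and of −0.13 without CTCF-dRBR replicate 1. In CTCF-dRBR replicate 1 the 2 genes thus sat at opposite ends of the 6 libraries, H3F3A as the lowest and H3F3B as the highest.

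The log2 ratio of H3F3A to H3F3B in TPM was −0.65, −0.83 and −0.91 in CTCF-WT and −1.63, −0.79 and −0.62 in CTCF-dRBR. CTCF-dRBR replicate 1 was the lowest and CTCF-dRBR replicate 3 the highest. The difference was −0.21 (exact two-sided permutation p = 0.9) and turned to 0.093 without CTCF-dRBR replicate 1. The H3F3A coding sequence is 51.6% GC and that of H3F3B 59.4%. The longest transcripts, whose values were used for the GC trend, are 40.5% GC for H3F3A and 50.4% for H3F3B. With the GC trend removed, the log2 fold change of H3F3A was −0.66 (adjusted p = 0.235 in limma-voom).

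H3F3A has a processed copy that was counted as a gene of its own. H3F3AP4, at chr2:175584636-175585046 (GRCh37), is a pseudogene of 411 bases whose sequence equals the H3F3A coding sequence, with 0 differences. Reads from the coding part of H3F3A can be assigned to either. It was given 7352, 7423 and 6844 counts in CTCF-WT and 4369, 8112 and 6782 in CTCF-dRBR. This was 27.6%, 29.6% and 28.9% of the counts of both in CTCF-WT and 44.9%, 34.9% and 27.3% in CTCF-dRBR, with the highest share in CTCF-dRBR replicate 1. The groups overlapped. When these counts were added to H3F3A, the sum was 543, 489 and 446 CPM in CTCF-WT and 325, 451 and 483 CPM in CTCF-dRBR, with a log2 fold change of −0.25 (SE 0.17, 95% interval −0.66 to 0.16, adjusted p = 0.339 in limma-voom). The level of H3F3A above is therefore uncertain by the reads that went to its copy.

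CENPA encodes CENP-A, the H3 variant that marks centromeres. It lies at chr2:26987157-27023935 (GRCh37, plus strand) and overlaps SLC35F6 on the same strand. Its CPM was 24.1, 26.2 and 22 in CTCF-WT and 19.8, 28.2 and 25.3 in CTCF-dRBR. CTCF-dRBR replicates held both the lowest and the highest value. A log2 fold change of 0.029 was fitted (SE 0.16, 95% interval −0.36 to 0.42, adjusted p = 0.905 in limma-voom).

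H1FX encodes the linker histone H1X, which binds the DNA between nucleosomes. It lies at chr3:129033614-129035129 (GRCh37, minus strand) and overlaps H1-10-AS1 on the other strand. Its CPM was 46.2, 51.8 and 35.1 in CTCF-WT and 6.02, 28.9 and 52.1 in CTCF-dRBR. The CTCF-dRBR libraries spanned the whole range of both groups, with replicate 1 the lowest and replicate 3 the highest of all 6. Fitted over all 6 libraries, the log2 fold change was −0.94 (SE 0.67, 95% interval −2.55 to 0.67, adjusted p = 0.352 in limma-voom) and −0.18 without CTCF-dRBR replicate 1. Its transcript is 68.6% GC, and with the GC trend removed its CPM was 27.4, 31.5 and 33.2 in CTCF-WT and 21.1, 34.0 and 37.3 in CTCF-dRBR, with a log2 fold change of 0.0034.

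**Figure D2:**
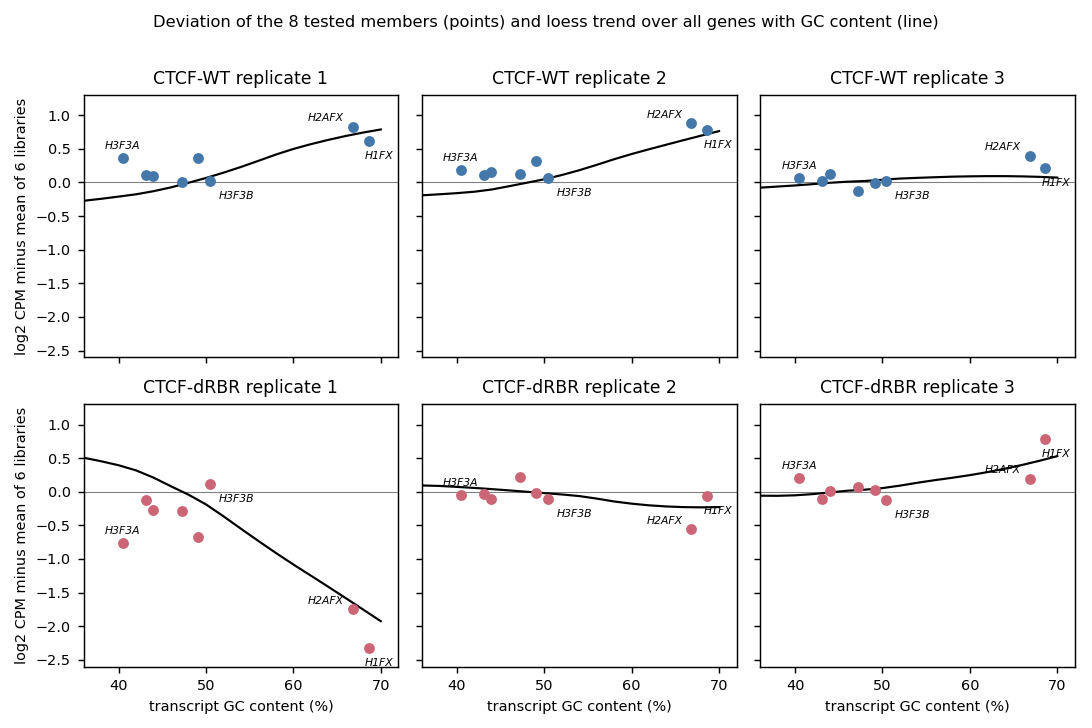
Difference in log2 CPM between a library and the 6-library mean (vertical axis) against transcript GC content in percent (horizontal axis), 1 panel per library, with the loess trend over all genes as a line and the 8 tested members as points. The trend falls with GC content in CTCF-dRBR replicates 1 and 2 and rises in CTCF-WT replicates 1 and 2 and CTCF-dRBR replicate 3, and H2AFX and H1FX lie at its GC-rich end.

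The 2 members of highest GC content, H2AFX and H1FX, also had the most negative fold changes. With the GC trend removed they separated, at −0.44 for H2AFX and 0.0034 for H1FX. In the same setting the log2 fold changes of the other 6 members ran from −0.66 for H3F3A to 0.045 for H3F3B, and H2AFV, H2AFX and H2AFY were still the 3 whose groups did not overlap.

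**Figure D3:**
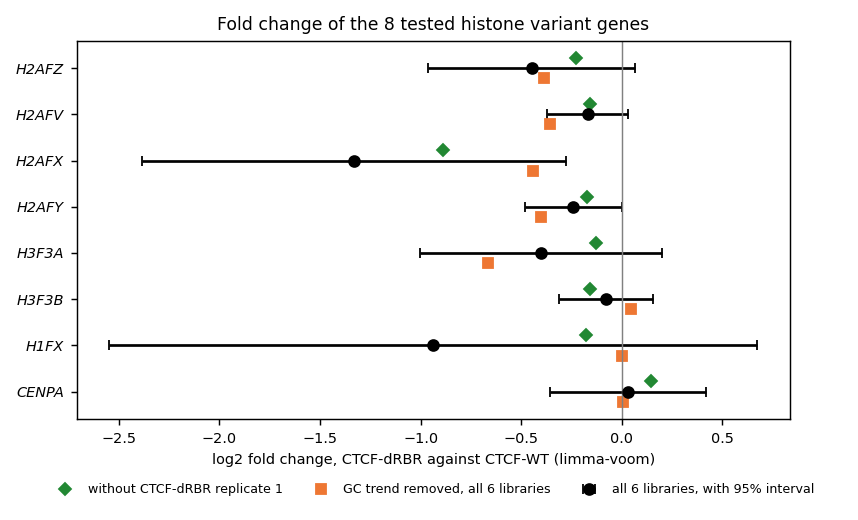
Log2 fold change of CTCF-dRBR against CTCF-WT (horizontal axis) for the 8 tested members, as fitted over all 6 libraries with its 95% interval, with CTCF-dRBR replicate 1 left out, and after removal of the GC trend. The intervals of H2AFX and H2AFY alone lie below 0, and H1FX moves from −0.94 to 0.0034 when the GC trend is removed.

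H2AFJ, the H2A.J gene, was close to undetected. It lies at chr12:14927339-14930936 (GRCh37, plus strand) and had 2, 2 and 3 counts in CTCF-WT and 10, 1 and 6 in CTCF-dRBR. It was not tested, and no difference was detectable at these counts, where 3 counts correspond to 0.057 to 0.10 CPM per library.

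Variants were next set against the replication-dependent genes of their families, as shares of the summed TPM. H3F3A and H3F3B held 7.04%, 7.33% and 9.83% of the H3 TPM in CTCF-WT and 19.2%, 10.7% and 9.95% in CTCF-dRBR, with 15 replication-dependent genes making up the rest. The groups did not overlap, though CTCF-dRBR replicate 3 was only just above CTCF-WT replicate 3. The difference was 5.24 percentage points, with an exact two-sided permutation p of 0.1, the smallest possible. Without CTCF-dRBR replicate 1 it was 2.27 (exact two-sided permutation p = 0.2). The processed copy H3F3AP4 was not counted among the variants.

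The H2A variants held 6.37%, 7.11% and 7.61% of the H2A TPM in CTCF-WT and 10.1%, 9.56% and 8.03% in CTCF-dRBR. These groups did not overlap either, and the difference was 2.22 percentage points, and 1.77 without CTCF-dRBR replicate 1 (exact two-sided permutation p = 0.1). The summed TPM of the H2A variants themselves was 527 to 828 in CTCF-WT and 618 to 830 in CTCF-dRBR, and that of the 17 replication-dependent H2A genes 7746 to 10056 and 5476 to 7915. Among the linker histones, H1FX held 0.40%, 0.48% and 0.37% of the H1 TPM in CTCF-WT and 0.095%, 0.37% and 0.61% in CTCF-dRBR, with overlap (exact two-sided permutation p = 0.8). For these 3 shares, Benjamini-Hochberg adjusted p-values were 0.15 for H3, 0.15 for H2A and 0.8 for H1.

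**Figure D4:**
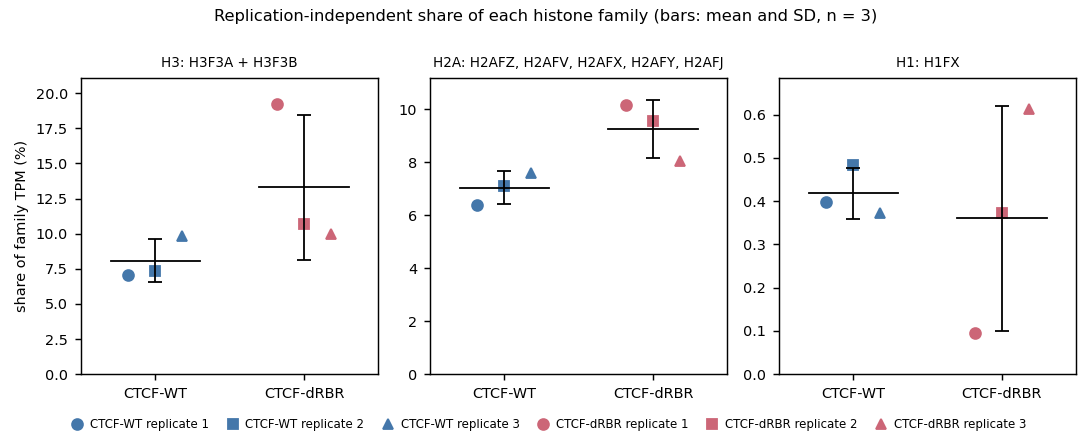
Share in percent (vertical axis, from 0) of the replication-independent genes in the summed TPM of the H3, H2A and H1 families, 1 panel per family, with 1 point per library and bars for the mean and SD of 3 libraries per group. The groups are apart in the H3 and H2A panels, and CTCF-dRBR replicate 1 is the highest library in both and the lowest in the H1 panel.

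The replication-dependent class itself stands in the denominator of these shares. Of its 69 genes, 62 were tested, 0 were called after adjustment, and 38 had an unadjusted p under 0.05 in limma-voom, all 38 lower, against 12.8% of all genes. The median log2 fold change was −0.75. It was −0.47 when CTCF-dRBR replicate 1 was left out and −0.40 after removal of the GC trend, for which 57 of the 62 genes had a GC value, with a median of 57.7% against 47.1% for all genes. HIST1H2AE had a log2 fold change of −0.80 (adjusted p = 0.0959) and HIST1H2BM of −0.56 (adjusted p = 0.112) in limma-voom. With the GC trend removed, HIST1H2AE was at −0.40 and HIST1H2BM at −0.19. No gene of this class was higher at an unadjusted p under 0.05. HIST2H3A and HIST2H3C, both among the 38, had the same CPM in every library. The 2 above 0 were HIST2H2AC at 0.22 (adjusted p = 0.491) and HIST2H4B at 0.85 (SE 1.56, adjusted p = 0.706) in limma-voom, both with overlapping groups. HIST2H4B was 7.91, 33.9 and 177 CPM in CTCF-WT and 7.05, 167 and 172 in CTCF-dRBR. HIST2H4A was 1000, 834 and 382 CPM in CTCF-WT and 131, 257 and 345 in CTCF-dRBR, with a log2 fold change of −1.58. How reads were divided between such gene pairs was not tested. With the GC trend removed, HIST2H2AC was at 0.79 and HIST2H4B at 0.85. The part of this GC difference in the shares was not tested.

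Chaperones and exchange factors of the variants were examined as a list of 32 genes, all tested. None passed after adjustment, and 11 had an unadjusted p under 0.05 in limma-voom, 8 lower and 3 higher, against 12.8% and 12.6% of all genes. The median log2 fold change was −0.16. SSRP1, a subunit of the histone chaperone FACT, was 345, 323 and 334 CPM in CTCF-WT and 219, 227 and 253 CPM in CTCF-dRBR, without overlap, with a log2 fold change of −0.52 (adjusted p = 0.0959 in limma-voom). RUVBL1, an ATPase of the H2A.Z-exchanging complexes, had a log2 fold change of −0.48 (adjusted p = 0.112). With the GC trend removed, SSRP1 was at −0.33 and RUVBL1 at −0.32.

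In the other direction, ATM, a kinase that phosphorylates H2A.X, was 222, 239 and 231 CPM in CTCF-WT and 356, 326 and 303 CPM in CTCF-dRBR, also without overlap, with a log2 fold change of 0.50 (adjusted p = 0.10 in limma-voom). ASF1A, a histone H3-H4 chaperone, had a log2 fold change of 0.63 (adjusted p = 0.108). With the GC trend removed, ATM was at 0.22 and ASF1A at 0.27. For H2A.Z, 4 of 9 exchange factors were lower at an unadjusted p under 0.05 and 0 higher, against 12.8% and 12.6% of all genes, with a median log2 fold change of −0.44. After GC removal that median was −0.29, and leaving out CTCF-dRBR replicate 1 gave −0.30. For H3.3 the numbers were 1 lower and 1 higher of 7, and for CENP-A 0 lower and 1 higher of 6, with medians of −0.28 and 0.014. After GC removal these medians were −0.034 and −0.051, and leaving out CTCF-dRBR replicate 1 gave −0.12 and −0.024. Of the H2A.X kinases and reader, 2 of 4 were lower and 1 higher.

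**Figure D5:**
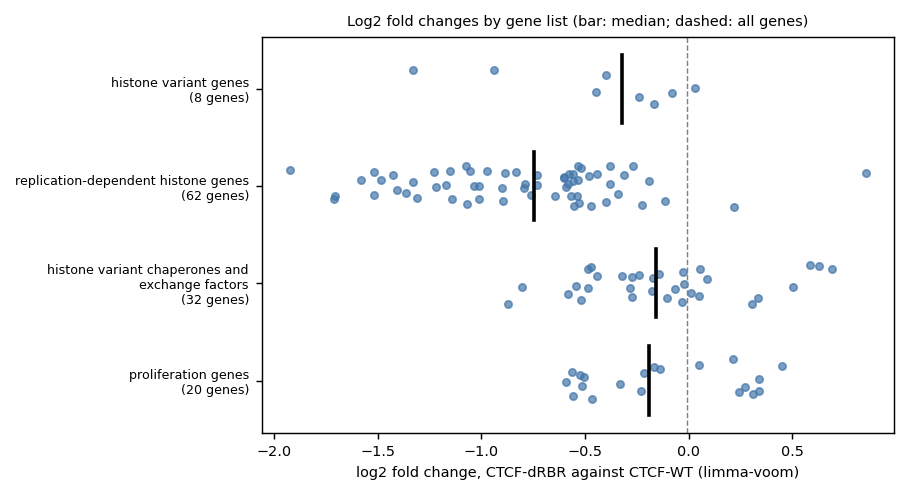
Log2 fold change of CTCF-dRBR against CTCF-WT (horizontal axis) for each tested gene of 4 lists, 1 point per gene with vertical jitter, a bar for the list median and a dashed line for the median of all genes. Medians are −0.32 for the variants, −0.75 for the replication-dependent histones, −0.16 for the chaperones and −0.19 for proliferation genes.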

How the data were processed

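The authors trimmed the reads with Trim Galore (0.6.3), aligned them to hg19 (GRCh37) with STAR (2.7.9a) and quantified genes with RSEM (1.3.1), per the labels' processing notes. The deposited expected counts are unnormalized RSEM estimates that need not be whole. The deposited TPM were scaled by the authors to gene length and library total, small RNAs included, and protein-coding genes held 30.2% to 63.2% of a library's TPM. Libraries were ribosome-depleted total RNA. The methods call the reads paired-end and the labels single-end. The deposited counts and TPM are named as stranded, but how the strand was used in counting is not stated in the sources used here.

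Genes that reached 1 CPM in no library were left out, leaving 14044. Counts were normalized by TMM (edgeR 4.0.16) and compared with limma-voom (limma 3.58.1, R 4.3.3) without covariates, two-sided, with Benjamini-Hochberg adjustment over all genes tested and a threshold of 0.05. Ratios and shares were compared over libraries by exact permutation tests. Alternatives included edgeR's quasi-likelihood test and DESeq2 (1.42.0), both on rounded counts, voomWithQualityWeights, limma-trend on log2 TPM with a pseudocount of 1 or 0.1, other scalings and filters, a replicate block, and leaving out each library. To remove the GC trend, the deviation of log2 CPM (prior count of 1) was fitted by loess (span 0.5, degree 2) on the GC content of the longest transcript, and subtracted. GC content was matched for 13777 genes (98.1%), 123 of them through an older symbol, a step added after the data were seen because it was missing for many histone genes. Fits were tested on simulated counts with known changes. The simulated spread between replicates was capped at its median over genes, so these tests do not show how the fits perform at the spread of these data. Figures were drawn with matplotlib (3.10.9).

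The members and lists were chosen with earlier results of these data known, and 1 further gene of the list is not reported here. Genes named were all members and, from the other tested lists, the 2 with the smallest unadjusted p in each direction. H3F3C, H2AFY2, H1FOO, CD3D, ELANE, CSF1R, HIST2H4A, HIST2H3A and HIST2H3C were named after their values were seen. CENPC stands for the older symbol CENPC1. For each member, the gene outside the list with the highest correlation was also named. Promoter windows came from RefSeq (GRCh38.p14), for all 9 members, and gene positions from Gencode on GRCh37.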

Additional observations from a re-analysis of the deposited data

How the results depend on the processing

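The tested members had 180 counts or more in every library, the lowest being H1FX in CTCF-dRBR replicate 1, the shallowest library, and the part of depth in the results was not tested. Of all genes, DESeq2 called 1619 (11.5%) and voomWithQualityWeights 9583 (68.2%). On log2(TPM + 1) 833 (5.93%) were called, on log2(TPM + 0.1) 760 (5.41%), and with the GC trend removed 1214 (8.81%). Leaving out 1 library gave 0 to 535 calls (at most 3.9%), the 535 without CTCF-dRBR replicate 1. After removal of the GC trend this was 0 to 3131 (at most 23.2%). Of the 8 tested variants, 7 were called by voomWithQualityWeights, which weighted libraries from 0.097 to 6.19. With the GC trend removed 1 was called, and up to 2 when a library was also left out. The 32 chaperones and exchange factors had 8 calls by DESeq2, 22 by voomWithQualityWeights, 2 on each TPM scale and 4 with the GC trend removed. Leaving out 1 library gave 0 to 4 calls, or 0 to 13 with the GC trend removed as well. All these counts are to be read beside the shares of all genes above. The same numbers were 20, 59, 2, 4, 0 to 2 and 0 to 24 for the 62 tested replication-dependent histones. For the 20 proliferation genes they were 3, 18, 0, 3, 0 to 3 and 0 to 4. On the scales log2(TPM + 1) and log2(TPM + 0.1), with all-gene medians of 0.40 and 0.54, H2AFZ (0.11 and 0.11), H2AFV (0.36 and 0.36), H2AFY (0.19 and 0.19), H3F3A (0.11 and 0.11) and H3F3B (0.32 and 0.32) turned positive. With the GC trend removed, H3F3B was 0.045 and H1FX 0.0034, and leaving out 1 library as well gave −0.10 to 0.15 for H3F3B, −0.16 to 0.22 for H1FX and −0.11 to 0.13 for CENPA. Without the GC step, leaving out 1 library gave −1.62 to −0.18 for H1FX and −0.16 to −0.038 for H3F3B. CENPA was −0.059 without the filter and −0.083 to 0.15 leaving out 1 library. The log2 ratio of H3F3A to H3F3B ranged from −0.41 to 0.093 and that of H2AFZ to H2AFV from −0.39 to −0.017. H2AFX was below 0 in all 26 alternatives (−1.78 to −0.39), and 3 of them called it. The cause of these differences was not tested.

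The correlations across genes of same-numbered libraries, after centring in each group, were −0.34, 0.099 and −0.47. They cannot show whether same-numbered libraries were prepared together, since each library also carries its own GC trend. With the replicate number as a block, 0 genes were called (1423 at an unadjusted p under 0.05), against 0 without it.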

Other observations

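Other variant genes outside the members were mostly near 0. HIST1H1T, a testis-type linker histone, was the 1 of 11 that passed the filter. It had 236, 260 and 266 counts in CTCF-WT and 147, 182 and 179 in CTCF-dRBR. In CPM these were 4.81, 5.06 and 5.02 in CTCF-WT and 4.92, 3.53 and 3.47 in CTCF-dRBR, with overlap. The log2 fold change was −0.36 (adjusted p = 0.234 in limma-voom). H3F3C, an H3.3-like retrogene, had at most 25.5 counts in a library. H2AFY2, the second macroH2A gene, had 0 counts in every library except 2 counts in CTCF-dRBR replicate 1, and H1FOO, the oocyte linker histone, had 0 counts in all 6.

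Proliferation genes are given as values, since CENPA and H2AFX are linked to the cell cycle. Of 20 tested, 8 had an unadjusted p under 0.05 in limma-voom, 6 lower and 2 higher (12.8% and 12.6% of all genes), and 0 passed after adjustment. MCM6, a subunit of the replicative helicase, had a log2 fold change of −0.56 and RRM2, a subunit of ribonucleotide reductase, of −0.51 (adjusted p = 0.0959 for both in limma-voom). TOP2A, a topoisomerase, had a log2 fold change of 0.45 (adjusted p = 0.153) and CCNB2, a mitotic cyclin, of 0.24 (adjusted p = 0.181). With the GC trend removed, MCM6 was at −0.74, RRM2 at −0.59, TOP2A at 0.15 and CCNB2 at 0.10. The median of the 20 was −0.19, and −0.0057 with the GC trend removed.

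Among 6354 genes whose mean TPM was 10 or more, the gene most like each member by Pearson's r of log2 CPM over the 6 libraries is given as a description. These were AC007969.5 for H2AFZ (0.997), MRPL16 for H2AFV (0.991), RNASEH2A for H2AFX (1.00), POLR3D for H2AFY (0.998), AP1B1 for H3F3A (0.999), UBP1 for H3F3B (0.993), VPS51 for H1FX (1.00) and DOCK8 for CENPA (0.985). All points share the same 6 libraries, their depth and their GC trend, and each is the highest of 6354 values of r.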
